A study of Mus musculus with 14 samples.

Results

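The immediate early genes studied here were 10 of the 46959 gene entries in the count table, chosen by symbol: Fos, Fosb, Jun, Junb, Egr1, Egr2, Nr4a1, Ier2, Dusp1 and Zfp36. All 10 were present and all 10 passed the filter on low counts. They were followed through 14 RNA libraries of Eµ-Myc lymphoma, a mouse cancer of B cells caused by Myc expressed from the heavy chain enhancer. The ASNase lymphoma was taken from a lymph node of a wild-type C57BL/6 mouse that had received cells of line 506 and was given L-asparaginase, an enzyme that breaks down asparagine, starting 7 days after the injection and continuing to disease endpoint. The vehicle lymphoma was grown from the same line in the same kind of host and was given 0.9% NaCl on the same schedule. The 12 cultured lines (115, 136, 309, 504, 505, 506, 517, 524, 549, 649, 688 and 801) each came from a different Eµ-MycTg/+ mouse, were left untreated, and were grown for 24 h in medium with 0.37 mM added asparagine. The labels give the genotype of all 14 samples as WT.

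Each lymphoma was 1 library, so neither has a replicate, and both descend from line 506. The spread used by the tests is that among the lines, each of which is 1 mouse and 1 library. The hosts were not immune deficient by their label, and the lymph nodes hold host cells beside the lymphoma cells. Total counts were 25690935 in the ASNase lymphoma, 27715832 for the vehicle lymphoma and 24597230 to 32614751 in the lines, so that 3 counts correspond to between 0.092 and 0.122 CPM (counts per 1000000 counts of the library). The 10 pan-B cell markers summed to 3390 and 4484 CPM in the ASNase and vehicle lymphomas, with a range over the lines of 2422 to 3876 CPM. Line 524 stood apart from the other lines for several of the genes described here, and results that rest on it are given with and without it.

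Immediate early genes are the first genes that a cell transcribes after a signal such as a growth factor, antigen or stress, and they need no new protein to be switched on. Kinases of the MAP kinase and cyclic AMP pathways act on factors already bound at their promoters, among them serum response factor with its ternary complex partners and the CREB family. Most of the products are transcription factors that carry the response further, while others, such as the phosphatase Dusp1 and the RNA binding protein Zfp36, bring it to an end. Their transcripts are short and short-lived. In B cells, engagement of the antigen receptor is a known inducer of the Fos, Egr and Nr4a families.

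The genes were compact in the deposited annotation. They spanned 1522 bases (Ier2) to 7947 bases (Nr4a1) there, against a median of 16135 bases over the 17450 genes tested. In the GENCODE annotation Ier2, Junb and Jun had 1 exon, against a median of 7 exons over coding genes. The longest member transcript in GENCODE spanned 20527 bases, above the median of 16650.5 bases over coding genes. RefSeq promoter windows (250 bases before to 50 bases after a transcript start, GRCm38.p6) were found for all members but Egr1 and Ier2. Shown here are the windows of the 5 members on which the results turn: Fos and Dusp1, which were higher in the lymphomas, and Nr4a1, Junb and Egr2, which were higher in line 524. Capitals mark the core of the cyclic AMP response element (TGACG, or CGTCA on the other strand), the serum response element called the CArG box, and the EGR site (GCGNGGGCG on either strand).
Fos, chr12:85473640-85473939, plus strand: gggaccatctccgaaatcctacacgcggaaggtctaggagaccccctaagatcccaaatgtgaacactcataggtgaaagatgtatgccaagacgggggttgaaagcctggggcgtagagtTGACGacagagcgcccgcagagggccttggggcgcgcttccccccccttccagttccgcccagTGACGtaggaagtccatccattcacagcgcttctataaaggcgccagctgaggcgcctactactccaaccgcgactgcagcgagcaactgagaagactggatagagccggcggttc
Dusp1, chr17:26508423-26508722, minus strand: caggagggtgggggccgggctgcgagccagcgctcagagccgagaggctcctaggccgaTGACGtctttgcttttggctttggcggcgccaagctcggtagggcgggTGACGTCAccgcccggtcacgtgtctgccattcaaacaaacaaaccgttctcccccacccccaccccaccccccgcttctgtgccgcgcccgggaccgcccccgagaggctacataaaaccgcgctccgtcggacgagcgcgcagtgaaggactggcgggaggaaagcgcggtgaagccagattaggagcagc
Nr4a1, chr15:101266596-101266895, plus strand: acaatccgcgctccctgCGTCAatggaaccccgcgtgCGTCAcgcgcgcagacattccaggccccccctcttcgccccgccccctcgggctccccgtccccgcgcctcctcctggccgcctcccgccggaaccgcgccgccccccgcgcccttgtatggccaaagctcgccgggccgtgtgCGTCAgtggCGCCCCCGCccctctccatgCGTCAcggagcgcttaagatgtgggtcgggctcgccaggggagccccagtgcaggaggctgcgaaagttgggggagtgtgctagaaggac
Junb, chr8:84978699-84978998, minus strand: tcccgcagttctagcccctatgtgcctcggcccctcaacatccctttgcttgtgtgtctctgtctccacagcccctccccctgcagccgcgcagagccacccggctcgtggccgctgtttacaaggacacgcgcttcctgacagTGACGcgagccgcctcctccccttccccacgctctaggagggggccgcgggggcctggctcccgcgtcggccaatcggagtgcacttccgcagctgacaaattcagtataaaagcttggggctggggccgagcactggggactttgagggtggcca
Egr2, chr10:67537619-67537918, plus strand: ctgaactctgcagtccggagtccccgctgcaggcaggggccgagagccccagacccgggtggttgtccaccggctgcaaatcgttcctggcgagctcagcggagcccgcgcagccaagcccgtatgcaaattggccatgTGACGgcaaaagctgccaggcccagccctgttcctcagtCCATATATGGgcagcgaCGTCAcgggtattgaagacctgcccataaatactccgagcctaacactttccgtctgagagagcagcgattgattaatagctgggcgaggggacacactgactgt

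The core of the cyclic AMP response element was in the windows of 6 of the 8 members that have one (Dusp1, Egr2, Fos, Fosb, Junb and Nr4a1), against 23.0% of the 27025 genes with a window. A gene was counted if any of its windows held the motif. In Fos it began 66 and 129 bases before the start, and in Nr4a1 it occurred 4 times, at 40, 69, 213 and 233 bases before the start. In Dusp1 the core lay on both strands in overlapping copies, at 143 and 140 bases before the start, with another copy at 191 bases. The CArG box was in the windows of Egr2 and Zfp36, against 1.81% of all genes with a window. In the Egr2 window shown it began 72 bases before the start. That window is 1 of 5 listed for Egr2, and its start lies inside the span of the gene in the deposited annotation. The EGR site was in the windows of Fosb, Nr4a1 and Zfp36 (6.27% of all genes with a window), and the AP-1 site TGANTCA was in none of the 8 (8.97% of all genes with a window). These are matches of letters in 300 bases and say nothing about binding. A motif absent from a window may still lie further upstream, and Egr1 and Ier2 could not be searched.

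A second sequence feature lies in the 3′ untranslated regions. The heptamer TATTTAT is the core of the AU-rich element that Zfp36 (tristetraprolin) binds to have a transcript degraded, and the first copy in each member that has one is shown in capitals within 30 bases of GRCm38 sequence, because the product of one of the 10 genes is known to bind it.
Dusp1, chr17:26506158-26506187, minus strand: gagctggtcctTATTTATttaacacccccc
Zfp36, chr7:28376965-28376994, minus strand: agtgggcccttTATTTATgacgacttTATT
Fos, chr12:85477103-85477132, plus strand: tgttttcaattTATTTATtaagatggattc
Fosb, chr7:19303325-19303354, minus strand: ccacccccagcTATTTATccctttcctggt
Jun, chr4:95049078-95049107, minus strand: ttgcttgtgcaTATTTATaatagcgttcgt
Dusp1 and Zfp36 each had 3 copies, Fos had 2, and Fosb and Jun had 1 each. The other 5 members had 0. The stretch shown for Zfp36 ends with the start of a further copy. Over the 9160 coding genes whose 3′ untranslated region was within the length range of the members, 27.1% had 1 copy or more and 2.45% had 3 or more.

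In culture the members fell into a well expressed and a scarce set. On a per-length scale (CPM per kilobase of exon, median of the 12 lines), the levels were 30.35 for Zfp36, 21.6 for Junb, 18.1 for Nr4a1 and 12.95 for Ier2, and then 2.4 for Jun, 1.24 for Fosb, 0.897 for Fos, 0.738 for Egr1, 0.656 for Dusp1 and 0.114 for Egr2. Ier2 was above Jun in all 12 lines, and this step separates the sets. Neighbours elsewhere in the order changed places between lines: Zfp36 was above Junb in 8 lines, Junb above Nr4a1 in 6, Fos above Egr1 in 6 and Egr1 above Dusp1 in 6. Reads of Jun overlap those of the antisense gene Junos, which had 0 to 7 counts per library against at least 36 for Jun, and the strand setting of the counting is not given in the sources used here.

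**Figure D1:**
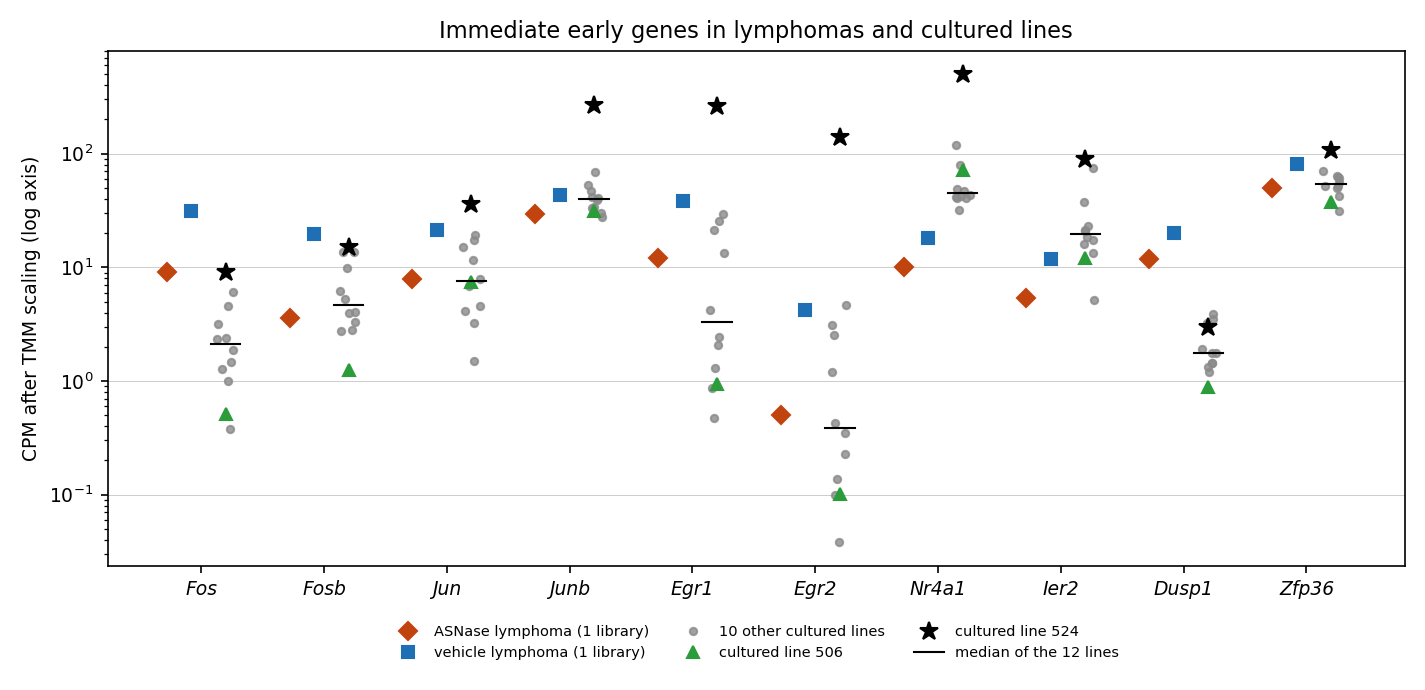
Level of each member in every library, as CPM after TMM scaling on a log axis: diamonds are the ASNase lymphoma, squares the vehicle lymphoma, stars line 524, triangles line 506, dots the other 10 lines and bars the median of the 12 lines. Line 524 is the highest line for 9 of the 10 members, both lymphomas lie above all 12 lines for Dusp1, and both lie below all 12 lines for Nr4a1.

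Line 524 had the highest level among the lines for 9 of the 10 members, the exception being Dusp1, which was highest in line 504. When each line was set against the other 11, edgeR's quasi-likelihood test called 3 members higher in line 524 at an adjusted p under 0.05, and 0 lower, against 2.84% of the 15648 genes tested called higher in that line, 1.12% called lower and 3.97% called in either direction. The members were Nr4a1, Junb and Egr2. In the other 11 lines no member was called. The share of genes called there was 3.8% in line 504, 0.147% in line 517, 0.121% in line 136, 0.102% in line 801, 0.0895% in line 505, 0.0767% in lines 115 and 309, 0.0192% in line 649 and 0% in lines 506, 549 and 688. The single unadjusted p under 0.05 was that of Jun in line 309 (1.49 CPM, adjusted p = 0.910 by edgeR).

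Nr4a1 (Nur77), an orphan nuclear receptor induced by antigen receptor signals in lymphocytes, stood at 501 CPM in line 524, against a lowest of 31.95, a median of 43.0 and a highest of 119.7 CPM in the other 11 lines. It was 9.05-fold higher in line 524 (log2 fold change 3.18 ± 0.43 SE, adjusted p = 0.00102 by edgeR). Line 524 was thus far outside a group in which the next line, 801, was itself above the rest.

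Junb, the AP-1 subunit that partners Fos proteins and often restrains Jun, stood at 268 CPM in line 524, against 27.5, 39.2 and 69.6 CPM as the lowest, median and highest of the other 11 lines. It was 6.59-fold higher in line 524 (log2 fold change 2.72 ± 0.31 SE, adjusted p = 0.000321 by edgeR). The 11 other lines lay close together for Junb, and line 524 was 3.85 times the highest of them.

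Egr2 (Krox20), a zinc finger factor of the early growth response family that limits lymphocyte activation, stood at 141 CPM in line 524, against 0.0381, 0.348 and 4.63 CPM as the lowest, median and highest of the other lines. The edgeR log2 fold change was 6.91 ± 1.28 SE (adjusted p = 0.00909). Egr1 (Zif268), its close relative, stood at 264 CPM in line 524, against 0.468, 2.44 and 29.4 CPM, and its log2 fold change of 4.83 ± 1.31 SE missed the threshold (adjusted p = 0.0647 by edgeR). No other line reached the level of line 524 in either gene, although 4 lines had much more of both than the rest.

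The other members were also highest or near highest in line 524, by less. Zfp36 stood at 107.9 CPM in line 524, against 31.2 to 70.1 CPM in the other lines (log2 fold change 1.04, adjusted p = 0.103 by edgeR). Jun, the main AP-1 partner of Fos, stood at 36.1 CPM against 1.49 to 19.2 CPM, and Ier2, a small nuclear protein of the early response, at 90.6 CPM against 5.16 to 75.3 CPM. Line 524 lay above the range of the other lines for all of these, but with log2 fold changes of 2.00 and 1.93 neither Jun nor Ier2 was called (adjusted p = 0.285 and 0.268 by edgeR). Fos (9.11 against 0.380 to 6.13 CPM) and Fosb (15.1 against 1.26 to 13.8 CPM), inducible subunits of AP-1, were just above the highest of the other lines. Dusp1, at 3.01 CPM against 0.882 to 3.87 CPM, was within their range. In all, 7 of the 10 members had an unadjusted p under 0.05 in line 524, beside 14.3% of the 15648 genes.

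**Figure D2:**
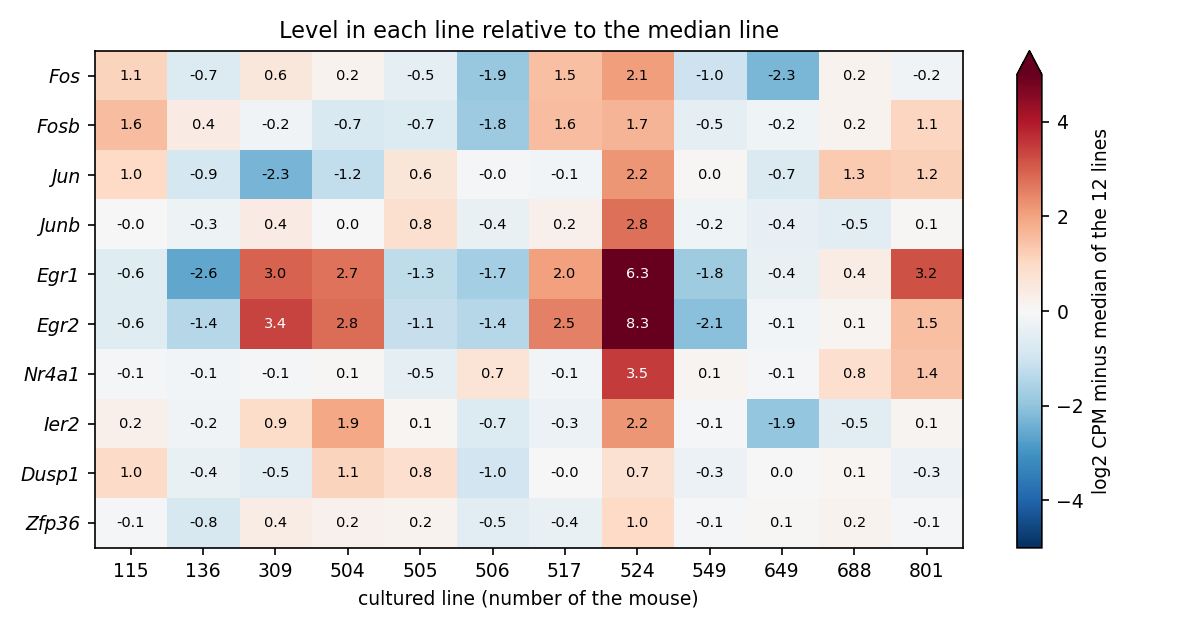
Log2 CPM of each member in each cultured line minus the median of the 12 lines, printed in each cell and coloured from blue (below the median) to red (above it), with values above 5 in the darkest red. The column of line 524 is red for all 10 members, up to 8.3 for Egr2, and lines 309, 504, 517 and 801 are red for Egr1 and Egr2 together, by 1.49 or more, with line 688 just above the median for both (0.38 and 0.12).

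Egr1 and Egr2 divided the lines. Egr1 was at 264 CPM in line 524, 29.4 in line 801, 25.3 in line 309, 21.2 in line 504 and 13.4 in line 517, and at 0.468 to 4.18 CPM in the remaining lines. Egr2 was at 141, 1.21, 4.63, 3.11 and 2.54 CPM in those same lines, in the same order, and at 0.0381 to 0.426 CPM in the remaining lines, where lines 136 and 506 had 3 counts each and line 549 had 1. The same 5 lines were thus highest for both genes. Across the 12 lines the Pearson r of their log2 CPM was 0.957, and it was 0.944 over the 11 lines without line 524, as a description of libraries that share no mouse but were made and scaled together. For comparison, r between Fos and Fosb was 0.756 with line 524 and 0.691 without it, while r between Junb and Nr4a1 was 0.697 with line 524 and -0.45 without it. Likeness among the other members therefore rested in part on that line.

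Spread among the lines, as the SD of log2 CPM, was 2.94 for Egr2, 2.67 for Egr1, 1.31 for Fos, 1.26 for Jun, 1.12 for Ier2, 1.10 for Fosb, 1.09 for Nr4a1, 0.89 for Junb, 0.66 for Dusp1 and 0.46 for Zfp36. The median over the 17450 genes tested was 0.47, so that Zfp36 was the single member at or under it. Without line 524 the SD of Junb was 0.40 and that of Nr4a1 was 0.55, while those of Egr1 (2.11) and Egr2 (1.92) remained large. Line 506, the source of both lymphomas, was the lowest line for Fosb (1.26 CPM) and Dusp1 (0.882 CPM) and was above the line median in 1 member, Nr4a1 (71.2 CPM). No member was called in line 506 by edgeR, and none had an unadjusted p under 0.05 (the smallest was 0.0519, for Fosb).

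Related early response genes were counted in line 524 from the lists, with individual genes named after their values were seen. The counts are to be read beside 2.84% of the 15648 genes tested called higher in that line and 1.12% called lower. Of 23 other early response genes tested, 11 were called higher by edgeR and 0 lower, among them Nfkbiz at 335.8 CPM against 2.03 to 9.91 CPM in the other lines, Tnfaip3 at 222.9 against 0.513 to 14.2 CPM, and Nfkbia at 366 against 19.2 to 60.9 CPM, all regulators or targets of NF-κB. Also among them were Ier3, Ier5, Btg1, Klf6, Gadd45b, Arc, Mcl1 and Plk3. Ier3, at 5.42 CPM against 0 to 0.24 CPM in the other lines, passed the filter on low counts through line 524 alone and could only be called higher. Of 6 relatives in the EGR and NR4A families 2 were called higher, Egr3 (144 CPM against 0.204 to 5.40 CPM) and Nr4a2 (48.9 against 5.60 to 15.97 CPM). Of 10 AP-1 relatives, Jdp2 alone was lower in line 524 (log2 fold change -1.12). Maff stood at 26.2 CPM against 0.301 to 5.25 CPM in the other lines (log2 fold change 4.71). Fosl1 and Batf3 were scarce, at 0.825 and 1.22 CPM. They passed the filter on low counts through line 524 alone and could only be called higher.

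Among 13 feedback inhibitors of the same signals, 1 was called higher in line 524, the Zfp36 relative Zfp36l1, at 1035 CPM against 7.37 to 110.75 CPM in the other lines. None of 21 upstream kinases and factors and none of 11 heat shock genes was called in either direction. The median log2 fold change in line 524 was 2.00 over the members, 4.45 over the EGR and NR4A relatives, 1.33 over the other early response genes, -0.31 over the feedback inhibitors and -0.04 over the upstream kinases and factors, beside -0.09 over all genes tested. Some markers of other cell types were higher in this line, at low levels, and others in the same lists were lower. Median log2 fold changes there were -1.57 over the macrophage markers tested and -1.64 over the endothelial markers tested. No median is given for the T cell markers, because Trac, Thy1 and Cd5 passed the filter on low counts through line 524 alone. The T cell markers that did not pass it (Cd3d, Cd3e, Cd3g, Cd4 and Cd8a) were at 0.1003 CPM or less in every line. Adgre1 (macrophage) and Vwf (endothelium) also passed it through line 524 alone. Of these lists, the tested markers lower in line 524 were Cd8b1 and Lat (T cell), Csf1r, Mrc1 and Lyz2 (macrophage), and Pecam1, Cdh5, Emcn and Egfl7 (endothelium). Thy1 stood at 2.80 CPM in line 524 against 0 to 0.0690 CPM in the other lines, and Trac at 1.44 against 0 to 0.0690 CPM. The summed T cell markers, at 5.49 CPM, were the highest of the lines. Adgre1 stood at 1.29 against 0 to 0.0690 CPM, while the macrophage list summed to 5.71 CPM (2.84 to 64.6 CPM over all lines). The endothelial gene Vwf stood at 4.13 CPM against 0 in every other line and was not called (adjusted p = 0.0896 by edgeR). Endothelial markers summed to 35.9 CPM in line 524, the lowest of the lines. Neutrophil markers summed to 0.287 CPM and fibroblast markers to 0.144 CPM. These marker genes were named after their values were seen, and their part in the levels of the members was not tested.

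The genes whose pattern over the 12 lines was most like the mean of the members were Fam43a (Pearson r = 0.93), Tank (0.91), Rel (0.91), Anxa2 (0.89) and Papolg (0.89). They were ranked among 9757 genes with a mean of 5 CPM or more over the 12 lines. The members' mean scaled level was itself highest in line 524 (1.99, with line 504 next at 0.26). The ranking thus favoured genes high in line 524, and each of the 5 was highest there. Rel, a subunit of NF-κB, stood at 580 CPM there against 28.6 to 88.0 CPM in the other lines. Tank, an adaptor of TRAF signalling, stood at 141 against 8.06 to 18.8 CPM. Anxa2, at 151 against 0 to 1.90 CPM, reached the floor through line 524 alone. Without line 524 the most alike were Ric8b (0.87), Brcc3 (0.86), Immp1l (0.82), Zfp943 (0.80) and Oard1 (0.80), and none of these was on the first list. The r of the first list without line 524 was 0.78 for Fam43a, 0.74 for Tank, 0.73 for Rel, 0.59 for Anxa2 and 0.73 for Papolg. These values are a description, and all of them share the same libraries and scaling.

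Set against the cultured lines, the lymphomas had more Fos and Dusp1. With both lymphomas as 1 side, edgeR called 2 of the 10 members higher and 0 lower at an adjusted p under 0.05, against 13.4% of the 17450 genes called higher, 11.1% called lower and 24.5% called in either direction. The share of members called was thus near that of all genes. The members' median log2 fold change was -0.18, beside -0.01 over all genes.

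Dusp1, the phosphatase that switches off MAP kinases in the nucleus, stood at 11.8 CPM in the ASNase lymphoma and 19.97 CPM in the vehicle lymphoma, against a lowest of 0.882, a median of 1.77 and a highest of 3.87 CPM in the lines (mean 2.11 ± 1.01 SD, n = 12). Both lymphomas lay above all 12 lines. The log2 fold change of both lymphomas against the lines was 2.86 ± 0.43 SE (adjusted p = 0.000483 by edgeR), or 7.27-fold. Each lymphoma alone was also called: 2.48 for the ASNase lymphoma (adjusted p = 0.0122) and 3.24 for the vehicle lymphoma (adjusted p = 0.00134), both by edgeR. For the ASNase lymphoma alone 12.3% of genes were called, 7.78% higher and 4.48% lower, and for the vehicle lymphoma alone 11.1% were called, 7.43% higher and 3.71% lower.

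Fos, the best known immediate early gene and an inducible subunit of AP-1, stood at 9.09 CPM in the ASNase lymphoma and 31.3 CPM in the vehicle lymphoma, against 0.380, 2.11 and 9.11 CPM as the lowest, median and highest line (mean 2.85 ± 2.59 SD, n = 12). The vehicle lymphoma lay above all lines, and the ASNase lymphoma lay above all lines but 524, at whose level it stood. As a pair the lymphomas were 5.91-fold higher than the lines (log2 fold change 2.56 ± 0.78 SE, adjusted p = 0.03 by edgeR). The vehicle lymphoma alone was called (3.45, adjusted p = 0.0312 by edgeR) and the ASNase lymphoma alone was not (1.67, adjusted p = 0.366 by edgeR). The call on both lymphomas rests on the vehicle lymphoma: without it the log2 fold change was 1.67 (adjusted p = 0.375 by edgeR).

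Nr4a1 ran the other way. It stood at 9.99 CPM in the ASNase lymphoma and 18.2 CPM in the vehicle lymphoma, against 31.95, 44.8 and 501 CPM as the lowest, median and highest line (mean 92.4 ± 131 SD, n = 12). Both lymphomas lay below all 12 lines. With all lines in the fit the log2 fold change was -2.77 ± 1.19 SE and was not called (adjusted p = 0.106 by edgeR). Without line 524, whose level sets much of the spread, it was -2.03 ± 0.50 SE and was called (adjusted p = 0.0107 by edgeR). DESeq2, which replaced the count of 13962 in line 524 by 1349 as an outlier, gave -1.97 (adjusted p = 7.00e-05).

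Ier2 stood at 5.38 CPM in the ASNase lymphoma and 11.9 CPM in the vehicle lymphoma, against 5.16, 19.7 and 90.6 CPM as the lowest, median and highest line. Both lymphomas lay below 11 of the 12 lines, the exception being line 649, and the log2 fold change of -1.87 ± 0.96 SE was not called (adjusted p = 0.176 by edgeR). Low values of Nr4a1 and Ier2 thus stood beside high values of Fos and Dusp1 in the same libraries.

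The remaining 6 members lay within the range of the lines or on both sides of their median. Fosb stood at 3.61 CPM in the ASNase lymphoma and 19.7 CPM in the vehicle lymphoma, against 1.26, 4.66 and 15.1 CPM as the lowest, median and highest line. Jun stood at 7.82 and 21.5 CPM in the ASNase and vehicle lymphomas, against 1.49, 7.66 and 36.1 CPM. For both genes the ASNase lymphoma was near the line median, or below it, and the vehicle lymphoma well above it. For Fosb the vehicle lymphoma was also above the highest line. Junb (29.2 and 42.9 CPM in the ASNase and vehicle lymphomas, against a lowest, median and highest line of 27.5, 39.8 and 268 CPM) and Zfp36 (49.5 and 81.5 CPM in the ASNase and vehicle lymphomas, against 31.2, 54.4 and 108 CPM) were in the range of the lines in both lymphomas.

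Egr1 stood at 12.0 CPM in the ASNase lymphoma and 38.3 CPM in the vehicle lymphoma, against 0.468, 3.31 and 264 CPM as the lowest, median and highest line. Egr2 stood at 0.501 CPM (15 counts) in the ASNase lymphoma and 4.22 CPM (131 counts) in the vehicle lymphoma, against 0.0381, 0.387 and 141 CPM. In both genes the lymphomas were above the line median and far below line 524. Their log2 fold changes were -0.51 and -3.14, with SE of 2.04 and 3.25, and became 1.22 and 0.32 without line 524, none of them called by edgeR (adjusted p = 0.890 and 0.530 with the line, 0.521 and 0.899 without it). No direction is given for these genes.

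**Figure D3:**
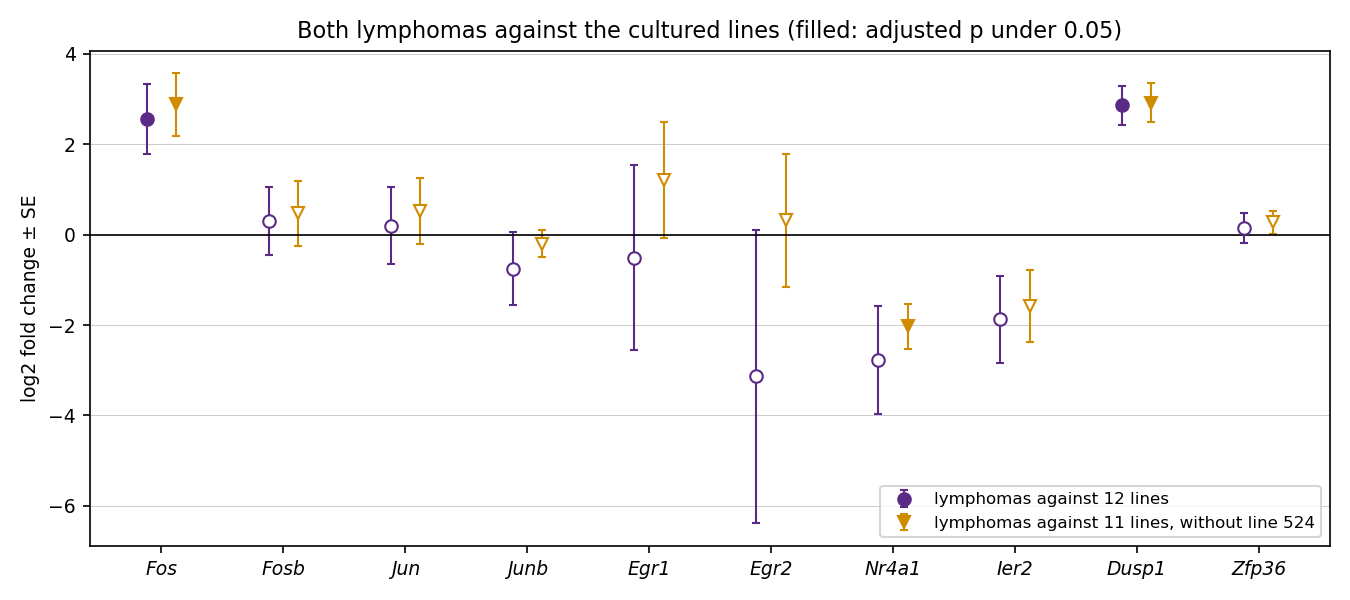
Log2 fold change of both lymphomas against the cultured lines for each member, with bars of 1 SE from edgeR, over all 12 lines (circles) and without line 524 (triangles); filled marks have an adjusted p under 0.05. Fos and Dusp1 are filled and above 0 in both fits, and Nr4a1 is filled, below 0, only without line 524.

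These comparisons are of bulk RNA, in which fewer cells of a type and less RNA per cell cannot be told apart, and other cells move with the lymphomas. The 8 fibroblast and reticular stroma markers summed to 2220 CPM in the ASNase lymphoma and 847 CPM in the vehicle lymphoma, against 0 to 2.04 CPM in the lines. The 10 macrophage markers summed to 736 and 359 CPM in the ASNase and vehicle lymphomas, against 2.84 to 64.6 CPM in the lines, with C1qa and C1qb at 0 in every line. Endothelial markers summed to 194 and 291 CPM against 35.9 to 477 CPM. Neutrophil markers summed to 15.6 and 23.1 CPM against 0 to 4.94 CPM, and T cell markers to 16.6 and 66.0 CPM against 0.232 to 5.49 CPM. Of these lists 3 fibroblast, 2 macrophage, 1 endothelial, 3 neutrophil and 2 T cell markers had 0 counts in every line. Such markers passed the filter on low counts through the lymphomas alone and could only be called higher, so no calls are given for these lists. The part of these cells in the levels of Fos, Dusp1 and the other members was not tested.

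The lymphomas were then set against line 506 itself, which was low for most members. These ratios compare single libraries, with exact 95% binomial intervals that cover counting error only, and a gene is called by size where the log2 ratio is at least 1 in either direction with 5 CPM or more in either library. By this rule 3 members were higher and 2 lower in the ASNase lymphoma, where 28.5% of 10516 genes were called, 16.5% higher and 12% lower. In the vehicle lymphoma 6 members were higher and 1 lower, where 29.7% of 10493 genes were called, 17.6% higher and 12.2% lower.

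Fos had 272 counts in the ASNase lymphoma and 971 in the vehicle lymphoma, against 15 in line 506, so that its ratio to line 506 was 17.9 (10.6 to 32.3) in the ASNase and 61.4 (37.1 to 110) in the vehicle lymphoma. Egr1 was at 12.7 times (8.61 to 19.3) and 40.3 times (27.7 to 60.9) the level of line 506 in the ASNase and vehicle lymphomas, and Dusp1 at 13.4 times (9.00 to 20.8) and 22.6 times (15.3 to 34.9). These 3 were called higher in both lymphomas. Fosb (15.7), Jun (2.89) and Zfp36 (2.19) passed the rule in the vehicle lymphoma alone, with ratios of 2.87, 1.05 and 1.33 in the ASNase lymphoma, where Fosb, at 3.61 CPM, missed the rule by its CPM floor alone.

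Nr4a1 was lower than in line 506 in both lymphomas, at 0.140 of its level (0.124 to 0.158) in the ASNase and 0.256 in the vehicle lymphoma. Ier2 was lower in the ASNase lymphoma, at 0.442 (0.364 to 0.533), and was at 0.975 in the vehicle lymphoma. With counts scaled by their totals the log2 ratio of Ier2 in the ASNase lymphoma was -0.84, short of the rule. Egr2, with 3 counts in line 506, had ratios of 4.92 (1.39 to 26.5) in the ASNase and 41.4 (13.9 to 203.5) in the vehicle lymphoma, and was under the CPM floor in each.

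**Figure D4:**
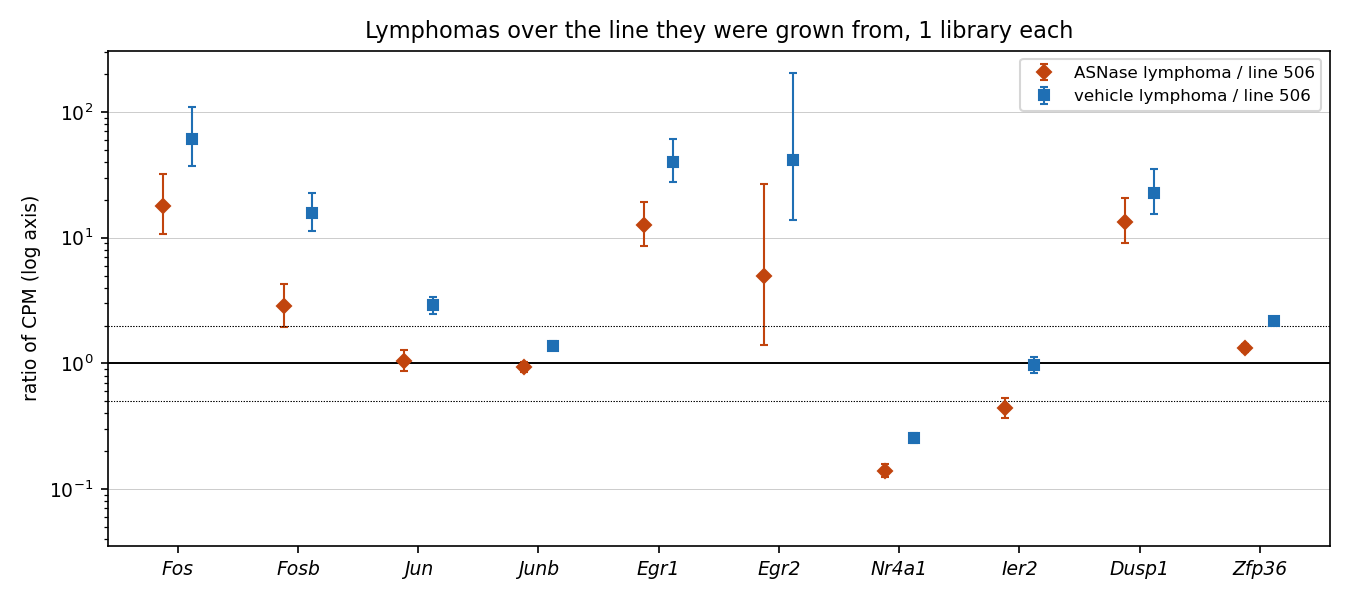
Ratio of CPM in each lymphoma to line 506, the line both were grown from, for each member on a log axis, with exact 95% binomial intervals for counting error; diamonds are the ASNase lymphoma and squares the vehicle lymphoma, and dotted lines mark a log2 ratio of 1 in either direction. Fos, Fosb, Egr1, Egr2 and Dusp1 lie above the upper dotted line in both lymphomas, Fosb in the ASNase lymphoma and Egr2 in both with less than 5 CPM on either side, Nr4a1 lies below the lower one in both, and the diamond is under the square for every member.

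All 10 members were lower in the ASNase lymphoma than in the vehicle lymphoma. Of the 9 members with 5 CPM or more in either lymphoma, 5 were called lower by size (Fos, Fosb, Jun, Egr1 and Ier2) and 0 higher, against 1.99% of 10561 genes called lower, 2.7% called higher and 4.69% called in either direction. The median log2 ratio of the 9 was -1.14, beside -0.05 over all genes above the floor, of which 55.3% had a ratio under 1. There is no replicate of either lymphoma, so that a difference between treatments and a difference between 2 mice cannot be told apart.

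The transcripts of the AP-1 subunits Fos, Fosb, Jun and Junb differed in the size of their ratios. Fosb had 108 counts in the ASNase lymphoma against 611 in the vehicle lymphoma, a ratio of 0.183 (0.148 to 0.225). The ratio of Fos was 0.291 (0.253 to 0.333), that of Jun 0.365 (0.313 to 0.424) and that of Junb 0.681 (0.625 to 0.742). The interval of Junb lies above those of the other 3.

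Among the zinc finger factors and the nuclear receptor, the ratio of Egr1 was 0.314 (0.278 to 0.354) and that of Nr4a1 0.548 (0.475 to 0.632). Egr2 had the lowest ratio of the 10 members, 0.119 (0.0646 to 0.203), on 15 and 131 counts in the ASNase and vehicle lymphomas and under the CPM floor. The ratio of Ier2 was 0.453 (0.374 to 0.546). Of the genes that end the response, Dusp1 had a ratio of 0.592 (0.518 to 0.676) and Zfp36 of 0.608 (0.570 to 0.648). Their intervals lie above those of Fos, Fosb, Jun and Egr1, while that of Junb reaches higher, and those of Nr4a1 and Ier2 overlap that of Dusp1.

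**Figure D5:**
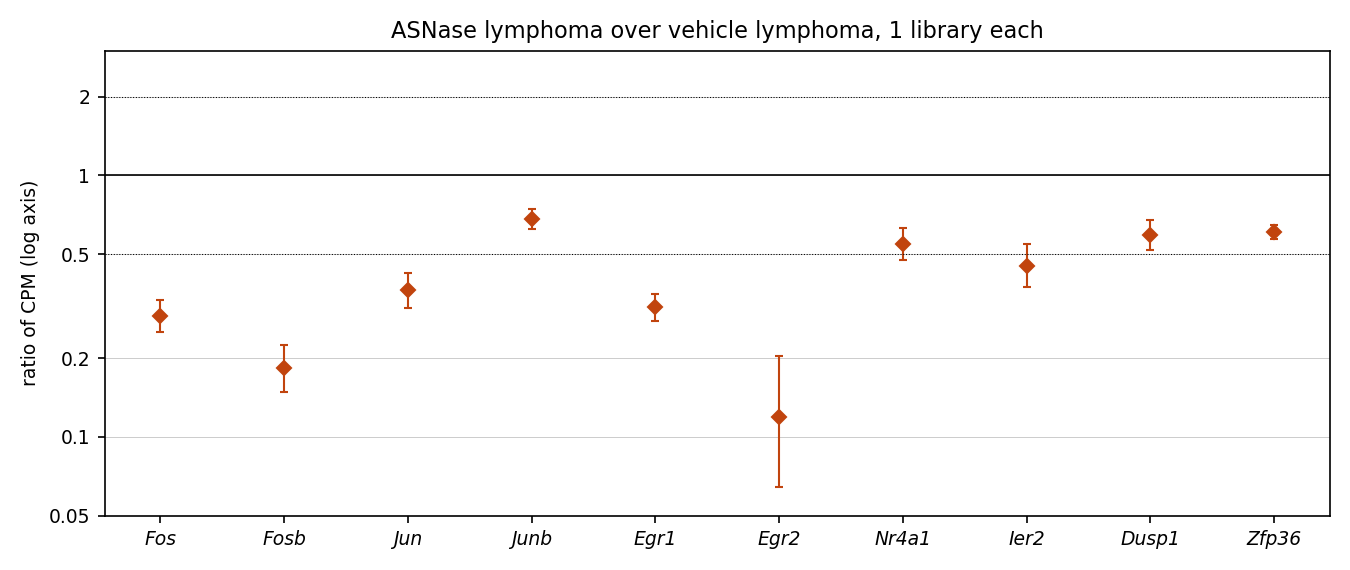
Ratio of CPM in the ASNase lymphoma to the vehicle lymphoma for each member on a log axis, with exact 95% binomial intervals for counting error and dotted lines at a log2 ratio of 1 in either direction. All 10 ratios and their intervals lie under 1, from 0.119 for Egr2 to 0.681 for Junb.

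Other cells differed between the lymphomas too. In the ASNase lymphoma macrophage markers summed to 736 CPM and fibroblast markers to 2220 CPM, against 359 and 847 CPM in the vehicle lymphoma. Pan-B cell markers (3390 against 4484 CPM in the vehicle lymphoma), endothelial markers (194 against 291 CPM) and T cell markers (16.6 against 66.0 CPM) were lower in the ASNase lymphoma. Their part in the ratios of the members was not tested.

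Genes of the same response outside the 10 did not move as one. Between the lymphomas, of 23 other early response genes above the floor 1 was called higher by size in the ASNase lymphoma and 2 lower. The counts in this paragraph are to be read beside 2.7% of 10561 genes called higher and 1.99% called lower. In lists this short, 0 calls are near those shares. The higher one was Ctgf, a secreted matrix protein, with a ratio of 2.57 (2.31 to 2.87), and the lower ones were Cyr61, a relative of Ctgf, with 0.361 (0.319 to 0.408) and Errfi1, named after its value was seen, with 0.448 (0.384 to 0.520). Of the 8 feedback inhibitors above the floor 2 were called higher, the Ras pathway inhibitors Spred1 (2.13) and Spred2 (2.21), and 0 lower. None of 5 AP-1 relatives, 2 EGR and NR4A relatives or 21 upstream kinases and factors was called, with the largest ratios being 1.78 for Jdp2 and 0.621 for Jund, 1.24 for Nab1 and 0.862 for Nr4a2, and 1.60 for Braf and 0.604 for Elk3. The median log2 ratio was -0.17 over the other early response genes and 0.17 over the upstream kinases and factors.

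Against the cultured lines, with both lymphomas as 1 side, edgeR called 3 of the 25 other early response genes higher and 1 lower, beside 13.4% and 11.1% of all genes. The 3 higher genes were also called in each lymphoma alone, and the lower one in neither. Sik1, a kinase induced by cyclic AMP, stood at 182 CPM in the ASNase lymphoma and 171 CPM in the vehicle lymphoma, against 8.32, 40.4 and 78.6 CPM as the lowest, median and highest line (log2 fold change 2.10 ± 0.47 SE, adjusted p = 0.00666 by edgeR). Cyr61 (11.7 CPM in the ASNase and 32.5 CPM in the vehicle lymphoma) and Ctgf (38.3 and 14.9 CPM) were called too, and had 0 counts in 11 and 12 of the 12 lines. Both passed the filter on low counts through the lymphomas alone and could only be called higher, so their calls add nothing to their levels. Ppp1r15a, which relieves the translation block of the stress response and was named after its values were seen, was lower, at 8.72 and 12.2 CPM in the ASNase and vehicle lymphomas against 14.6 to 53.8 CPM in the lines (log2 fold change -1.29, adjusted p = 0.0448 by edgeR, and 0.121 and 0.277 for the ASNase and vehicle lymphomas alone).

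Of the 13 feedback inhibitors edgeR called 0 higher and 2 lower with both lymphomas as 1 side, beside 13.4% and 11.1% of all genes. In each lymphoma alone 1 was lower, Dusp16, beside 4.48% (ASNase) and 3.71% (vehicle) of all genes. Dusp16, a phosphatase of the JNK and p38 kinases, stood at 7.12 CPM in the ASNase lymphoma and 6.70 CPM in the vehicle lymphoma, against 24.3, 48.0 and 68.5 CPM as the lowest, median and highest line (log2 fold change -2.79 ± 0.41 SE, adjusted p = 0.000478 by edgeR). Dusp5, a nuclear phosphatase of ERK, stood at 14.3 and 15.9 CPM against 22.2, 67.5 and 144 CPM (-2.34 ± 0.77 SE, adjusted p = 0.0417 by edgeR, and 0.166 and 0.191 for the ASNase and vehicle lymphomas alone). Both lymphomas lay below all 12 lines for these 2 phosphatases and above all 12 for their relative Dusp1.

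Among the 10 AP-1 relatives 1 was called higher and 0 lower with both lymphomas as 1 side, beside 13.4% and 11.1% of all genes. This was Fosl2 (Fra-2), at 41.0 CPM in the ASNase lymphoma and 28.4 CPM in the vehicle lymphoma against 3.46, 5.14 and 19.8 CPM in the lines (log2 fold change 2.28 ± 0.55 SE, adjusted p = 0.00965 by edgeR). It was called in the ASNase lymphoma alone (adjusted p = 0.0310 by edgeR) and not in the vehicle lymphoma alone (adjusted p = 0.0881 by edgeR). Jund (log2 fold change -0.75, adjusted p = 0.0679) and Mafk (-0.38, adjusted p = 0.261) were not called by edgeR. None of the 6 EGR and NR4A relatives was called; Nr4a3, Egr3 and Egr4 had the smallest p. Of 21 upstream kinases and factors 2 were called higher and 6 lower, beside 24.5% of all genes called, with 1 higher and 3 lower in the ASNase lymphoma alone and 0 higher and 2 lower in the vehicle lymphoma alone. With both lymphomas as 1 side, Elk4, a ternary complex partner of serum response factor, was higher (0.94 ± 0.19 SE, adjusted p = 0.00413 by edgeR), and the MAP kinase kinase Map2k2 (-0.67 ± 0.13 SE, adjusted p = 0.00276) and Atf1 of the CREB family (-0.67 ± 0.14 SE, adjusted p = 0.00482) were lower by edgeR.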

How the data were processed

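The deposited file holds raw counts per gene, made by the authors on the mm10 (GRCm38) build. The submitters' processing notes name STAR 2.4.0 and featureCounts, from Subread 1.5.0-p3. How the counting treated strand and multi-mapped reads, and its annotation release, are not given in the labels. Libraries were made from total RNA with a stranded mRNA kit and sequenced as paired ends, per the labels' protocols. All 14 value columns were matched to samples by title and 0 were left over. The 100 entries of control sequences entered neither the library sizes nor the tests. Exon lengths for levels per kilobase are those of the deposited table.

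The 10 members and all gene lists were chosen with earlier results of these data known.

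Counts were analysed with edgeR 4.0.16 in R 4.3.3, with filterByExpr on the groups, TMM scaling and the quasi-likelihood test (glmQLFit, glmQLFTest). One fit covered the 3 groups, its 11 residual degrees of freedom all coming from the lines, and 17450 genes were tested. A second fit set each line against the other 11, with 10 residual degrees of freedom, over 15648 genes, and assumes that a lone line varies like the others. Adjusted p-values follow Benjamini and Hochberg over all genes of a comparison, within each line in the second fit, with a threshold of 0.05. The p-values measure the spread between lines from different mice, and the lymphomas have no replicate. A prior count of 2 was used for log2 CPM. Between 2 single libraries a gene was called by size alone, at a log2 ratio of 1 or more either way and a floor of 5 CPM in at least 1 of them, with exact 95% binomial intervals. Without molecular identifiers, these intervals cover counting error only.

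Of each list, the text names the 3 genes with the smallest p in both lymphomas against the lines and the 2 with the largest ratio between the lymphomas above the CPM floor, and says where others were named after their values were seen. Of the heat shock list, counts and summed levels are given, and of the marker lists mostly summed levels. The 5 genes most like the members were ranked by Pearson r with the mean of the members' scaled log2 CPM.

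Alternatives were DESeq2 1.42.0, other scalings, no filter on low counts, other floors, a prior count of 0.5 and leaving out each library in turn. The analysis was tested on simulated data. Figures were drawn with matplotlib 3.10.9 in Python 3.11.15. Promoter windows and motif shares come from RefSeq (GRCm38.p6), and exons and untranslated regions from the GENCODE annotation of GRCm38.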

Additional observations from a re-analysis of the deposited data

How the results depend on the processing

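Each lymphoma is 1 library grown from line 506, so differences between them have no replicate check, and Egr2 rests on 1 to 11 counts in the 7 lines where it is scarce. No paired analysis was possible because the labels give the groups no shared replicate numbers and each lymphoma has 1 library. Relative to TMM, scaling by total counts raised all genes by 0.25 (log2) in the ASNase and 0.20 in the vehicle lymphoma against the lines (0.34 and 0.29 against line 506), and TMM over genes of the lines by 0.22 and 0.19 (0.25 and 0.22 against line 506); between the lymphomas no scaling moved genes by more than 0.06. Fos and Dusp1 kept their calls, with both lymphomas as 1 side against the lines, under every alternative run but 1: without the vehicle lymphoma Fos was 1.67 (adjusted p = 0.375 by edgeR) and members higher came to 1. Outside that setting the adjusted p of Fos was 0.00968 to 0.0446, and that of Dusp1 was 1.02e-06 to 0.0133 over all settings (edgeR or DESeq2).

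Leaving out 1 library at a time gave 1816 to 4881 genes called, 1 to 2 members higher and 0 to 1 lower. Without the ASNase lymphoma 1816 genes were called and Egr1 was 0.33, and without the vehicle lymphoma 2012 genes were called. Over all such fits Fosb ranged over -0.92 to 1.52, Jun over -0.52 to 0.93, Zfp36 over -0.20 to 0.51 and Egr1 over -1.34 to 1.22, the lowest of each without the vehicle lymphoma. Without line 524 members lower came to 1 (Nr4a1) and Egr1 was 1.22 and Egr2 0.32. DESeq2 gave 1 member lower, with Egr1 at 1.24 and Egr2 at 0.36, after it replaced the counts of line 524 in these genes. Zfp36 in the ASNase lymphoma alone was 0.0497 with total counts and 0.0104 with TMM over genes of the lines. Without line 524, an alternative chosen after seeing the data, members lower in the ASNase lymphoma came to 1 (Nr4a1, -2.47, adjusted p = 0.0390 by edgeR), Egr1 there was 0.38, and Junb and Egr2 in the vehicle lymphoma were 0.0802 and 1.85. With line 524 also left out of the comparison of lines, 0 members were called in any of 11 lines by edgeR, with 6 at an unadjusted p under 0.05.

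By size against line 506, members lower in the ASNase lymphoma came to 1 under total counts and under TMM over genes of the lines, as Ier2 dropped out. A floor of 1 CPM gave 1133 genes between the lymphomas, 4953 for the ASNase and 5088 for the vehicle lymphoma over line 506. A floor of 20 CPM gave 192, 1766 and 1871 genes, 3 members lower between the lymphomas, and for the ASNase lymphoma over line 506 0 members higher and 1 lower. The cause of these moves was not tested, apart from the floors and left-out libraries, which set what is counted.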

Other observations

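Heat shock genes, which mark protein folding stress and sample handling and are controlled apart from the immediate early genes, were lower in the lymphomas than in the cultured lines. Of the 11 listed, edgeR called 7 lower and 0 higher with both lymphomas as 1 side, against 11.1% of all genes called lower. It called 5 lower in the ASNase lymphoma alone and 2 lower in the vehicle lymphoma alone, beside 4.48% and 3.71% of all genes. Their summed level was 5546 CPM in the ASNase lymphoma and 6520 CPM in the vehicle lymphoma, against 8774, 11420 and 13100 CPM as the lowest, median and highest line. Hsph1, a large chaperone that works with Hsp70, stood at 41.5 CPM in the ASNase lymphoma and 94.7 CPM in the vehicle lymphoma against 155.6 to 315 CPM in the lines (log2 fold change -1.89 ± 0.32 SE, adjusted p = 0.00111 by edgeR, and 0.0622 for the vehicle lymphoma alone). Dnaja1, a cochaperone, stood at 89.7 and 103.9 CPM in the ASNase and vehicle lymphomas against 183.8 to 290.5 CPM (-1.31 ± 0.18 SE, adjusted p = 0.000269), and Hsp90aa1, the inducible Hsp90, had a log2 fold change of -1.37 ± 0.25 SE (adjusted p = 0.00172), both by edgeR. Both lymphomas lay below all 12 lines for Hsph1 and Dnaja1. Between the lymphomas the ratio of ASNase to vehicle was 0.439 (exact 95% interval 0.410 to 0.469) for Hsph1 and 0.605 (0.596 to 0.614) for Hspa8, without a replicate of either lymphoma.

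In line 524, where 3 members were called higher, none of the 11 heat shock genes was called in either direction, and their median log2 fold change was -0.23, beside -0.09 over all genes. Their summed level in line 524 was 10530 CPM, below the median line.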
